A study of Mus musculus with 2 samples.

Results

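The genes described here encode proteins that coat lipid droplets, fuse them or control the release of fatty acids from them. They are the perilipins Plin2, Plin3, Plin4 and Plin5, the CIDE genes Cidea, Cideb and Cidec, and the lipolysis genes G0s2, Pnpla2 and Abhd5. They were chosen by name, with the differences between these same arrays known, and are read by 14 of the 39422 probes, or 10 of the 31894 gene names, on a 1-colour Agilent array. All 14 probes carried the current symbol. The study set wild-type liver beside liver of the genotype Alb-Cre;CAG-floxed neo-Snail, both on the C57BL/6 strain, with 1 array for each. Alb-Cre is a Cre recombinase under the promoter of albumin, a hepatocyte gene, and in a construct with such a name a floxed neo cassette usually blocks Snail until Cre removes it. The labels give neither age, sex nor diet, and do not say whether RNA was pooled over animals.

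With 1 array per group there is no replicate, so no test was run, and each value describes these libraries and not the genotypes. The measure is the log2 difference of signals, each divided by its array's 75th percentile, as the genotype Alb-Cre;CAG-floxed neo-Snail minus wild-type. That percentile was 232.7 for wild-type liver and 302.1 for the other library, and signals given below are not divided by it. The ± beside a signal or a difference is the scanner software's own error for the spot, carried to the log2 scale for differences. For a mean over probes, it combines the errors of the probes as if independent and leaves out the spread between them. The ± covers array measurement only. The spread of the log2 difference between repeated spots of one probe had a median SD of 0.19 for signals under 100, 0.07 from 100 to 1000 and 0.04 above 1000. The probe for Snai1, the gene of Snail, read 23.2 in wild-type liver against 22.3, so its scaled log2 difference was -0.44. It is not known from the sources used here whether this probe can detect the transgene, so the label was not checked and "the library labelled Snail" is used throughout.

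A lipid droplet is a core of triglyceride and sterol esters under a single layer of phospholipid. Perilipins sit on that layer and govern access of lipases, and CIDE proteins gather at contacts between droplets and pass lipid from the smaller to the larger. Triglyceride breakdown starts with the lipase ATGL, the product of Pnpla2, which ABHD5 activates and G0S2 inhibits. In a healthy mouse liver PLIN2 is the main coat protein and CIDEB the main CIDE protein, while PLIN4 and CIDEC are best known from adipose tissue and from fatty liver.

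The probes behind the 4 genes that were at least 2-fold apart are shown so that each value can be tied to the stretch of transcript it reads. All are 60 bases long and are given 5′ to 3′ as the scanner files list them, the first 3 by their bases 31 to 60 and the last 2 whole, with coordinates of the whole probe.
Plin4, chr17:56240055-56240114 (mm9, minus strand): caggtctggctccctatactgctcatggta
Cidec probe 1, chr6:113374630-113374689 (mm9, minus strand): gtctgcagtaaactatttatgctgatacct
Pnpla2, chr7:148645928-148645987 (mm9, plus strand): aaagcagatctAATAAAagccacagctcag
Cidec probe 2, chr6:113378116-113378175 (mm9, minus strand): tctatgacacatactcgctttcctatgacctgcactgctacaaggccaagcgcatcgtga
G0s2, chr1:195098925-195098984 (mm9, minus strand): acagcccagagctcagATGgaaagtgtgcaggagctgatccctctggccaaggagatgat
Capitals in the Pnpla2 probe mark AATAAA, the hexamer of polyadenylation signals, and capitals in the G0s2 probe mark an ATG at its base 17 whose reading frame has no stop before the end of the probe. Cidec probe 1 has a stop codon in each forward frame, and Cidec probe 2 has 1 forward frame without a stop. The 2 Cidec probes start 3486 bases apart in the genome. No gene model on mm9 was used here, so exons are not assigned.

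Of the coat genes, Plin4 alone was at least 2-fold apart, and the other 3 perilipins lay within 1.3-fold. Plin4, a perilipin that coats newly forming droplets in fat cells, read 43.1 ± 5.24 in wild-type liver and 7002 ± 700.2 in the library labelled Snail. Both signals were well above background by the scanner software's call. The scaled difference was 125.0-fold, or 6.97 ± 0.23 on the log2 scale, the fourth highest of 15466 genes measured on both arrays. Of the genes with a symbol, Gsn, the gelsolin gene, came next above Plin4 at 468.3-fold, and Cidec and Ly6d, a surface protein gene, next below at 118.1-fold and 111.5-fold. Likeness here is only the size of 1 difference between 2 arrays.

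Plin2, the coat protein present on most hepatocyte droplets, read 10328 ± 1033 in wild-type liver and 16629 ± 1663 in the library labelled Snail. Scaled, this was 1.24-fold higher, a log2 difference of 0.31 ± 0.20 with a 95% interval from -0.09 to 0.71. Plin5, which tethers droplets to mitochondria and binds both ATGL and ABHD5, read 3057 ± 305.7 and 5115 ± 511.5. It was 1.29-fold higher, at 0.37 ± 0.20 with an interval from -0.03 to 0.77. Plin3, a perilipin that moves between cytosol and droplets, read 4293 ± 429.3 and 5088 ± 508.8, a log2 difference of -0.13 ± 0.20 with an interval from -0.53 to 0.27. The intervals of these 3 genes all held 0, and the Plin3 difference was 0.0049 under quantile normalization. These intervals rest on the software's error, which was wider than the SD of 0.04 between repeated spots for signals above 1000. Holding 0 therefore does not show that the arrays were level. In bulk tissue, more cells of one kind and more RNA per cell cannot be told apart, for these and all genes below.

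**Figure D1:**
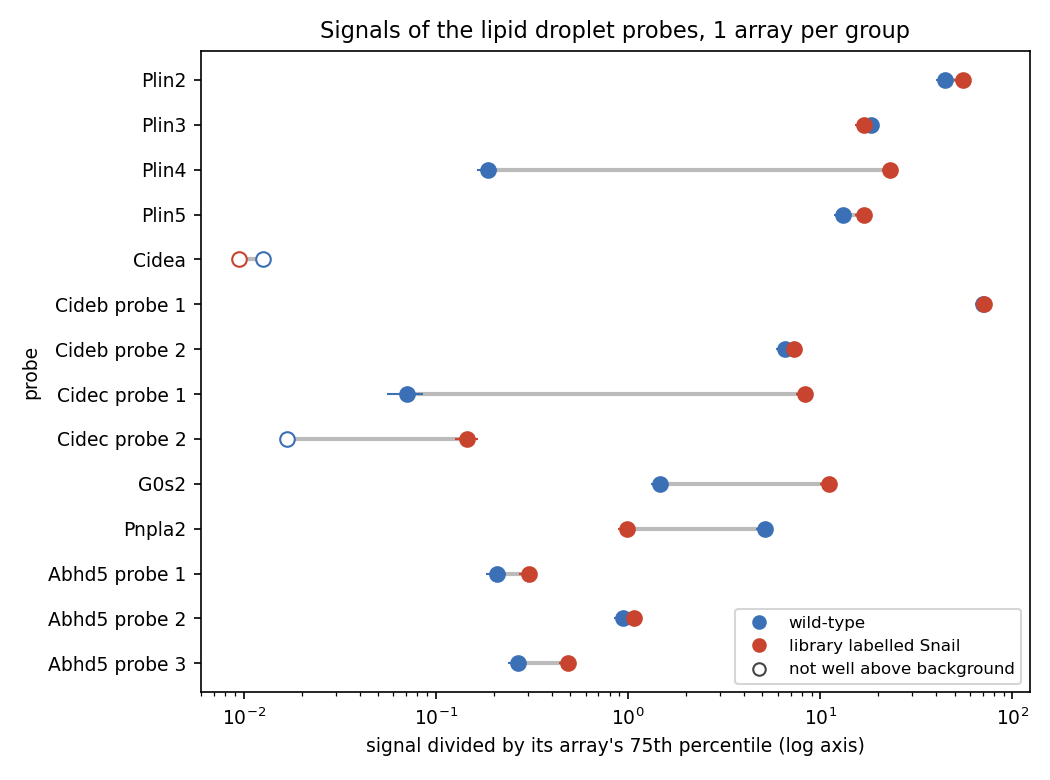
Signal of each of the 14 probes divided by its array's 75th percentile, on a log axis, for wild-type liver (blue) and the library labelled Snail (red), with the scanner software's error as a bar where it is wider than the point. Open points were not well above background and have no bar. Plin4, Cidec and G0s2 lie far to the right in the library labelled Snail, Pnpla2 lies to the left, and the other probes measured on both arrays lie within 2-fold. Positions of different probes are not comparable.

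The 3 CIDE genes differed from each other in both presence and difference. Cidec, also called Fsp27, enlarges droplets by fusion. Its probe 1 read 16.4 ± 3.40 in wild-type liver, close to the lowest signal called well above background on that array, 13.8, and 2516 ± 251.6 in the library labelled Snail. The scaled difference was 118.1-fold, or 6.88 ± 0.33, the fifth highest of all genes measured. Probe 2 read 3.88 ± 3.87, not well above background, and 43.9 ± 5.79, well above it, so it gives only a bound of at least 2.45-fold higher. Both probes were brighter in the library labelled Snail, and the size of the Cidec difference rests on probe 1.

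Cideb, which serves the lipidation of very-low-density lipoprotein in hepatocytes, was bright on both arrays and nearly level after scaling. Its probe 1, at chr14:56372942-56373001, read 16436 ± 1644 and 21494 ± 2149, a log2 difference of 0.01 ± 0.20. Its probe 2, at chr14:56373658-56373717, read 1519 ± 152.0 and 2198 ± 219.8, a difference of 0.16 ± 0.20. The mean of the 2 probes was 0.08 ± 0.14. Cidea, a CIDE gene of brown fat that is also known from fatty mouse liver, was not detected above background in either library. Its probe read 2.94 ± 2.94 and 2.84 ± 2.83, below the lowest signals called well above background, 13.8 and 12.9, and it has no fold.

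The lipase gene and the gene of its inhibitor went in opposite directions. G0s2 read 339 ± 34.1 in wild-type liver and 3350 ± 335.0 in the library labelled Snail, which was 7.61-fold higher or 2.93 ± 0.20. It ranked 45 from the top of the 15466 genes. Pnpla2 read 1199 ± 120.0 and 297.5 ± 29.9, which was 5.23-fold lower or -2.39 ± 0.20, and ranked 166 from the bottom. The ratio of the G0s2 signal to the Pnpla2 signal within an array was thus 39.9-fold higher in the library labelled Snail, a difference of 5.32 on the log2 scale that a single scaling factor per array cannot alter.

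Abhd5, the gene of the ATGL activator, was read by 3 probes, all well above background on both arrays and all higher in the library labelled Snail. Probe 1, at chr9:122277200-122277259, read 48.3 ± 5.67 and 91.6 ± 9.60, a log2 difference of 0.55 ± 0.23. Probe 2, at chr9:122288857-122288916, was the brightest, with 218.7 ± 22.1 and 322.5 ± 32.4, and gave 0.18 ± 0.21. Probe 3, at chr9:122289983-122290042, read 61.8 ± 6.84 and 146.8 ± 14.9 and gave 0.87 ± 0.22. The 3 probes spanned 0.69, against a median span of 0.19 among 3038 genes with several measured probes, of which 110 (3.62%) spanned over 1. Their mean was 0.53 ± 0.13, or 1.45-fold higher, and the brightest probe alone was 1.14-fold higher.

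Over the whole set, 9 of 10 genes were measured on both arrays. Plin4, Cidec and G0s2, 3 of these 9, were past 2-fold upwards in the library labelled Snail, against 613 (3.96%) of all 15466 genes. Pnpla2 alone, 1 of 9, was past 2-fold downwards, against 980 (6.34%) of all genes. The other 5 were within 2-fold, against 89.7% of all genes. The set was chosen with these differences known, so the counts describe it and support nothing further. Differences were above 0 for 7 genes and below 0 for 2, while 52.6% of all genes were below 0. The median of the set was 0.37 against -0.03 over all genes. The smallest difference past the 2-fold mark was that of Pnpla2 at -2.39, and the largest short of it that of Abhd5 at 0.53. No gene value lay near the mark, though Abhd5 probe 3 alone was at 0.87.

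**Figure D2:**
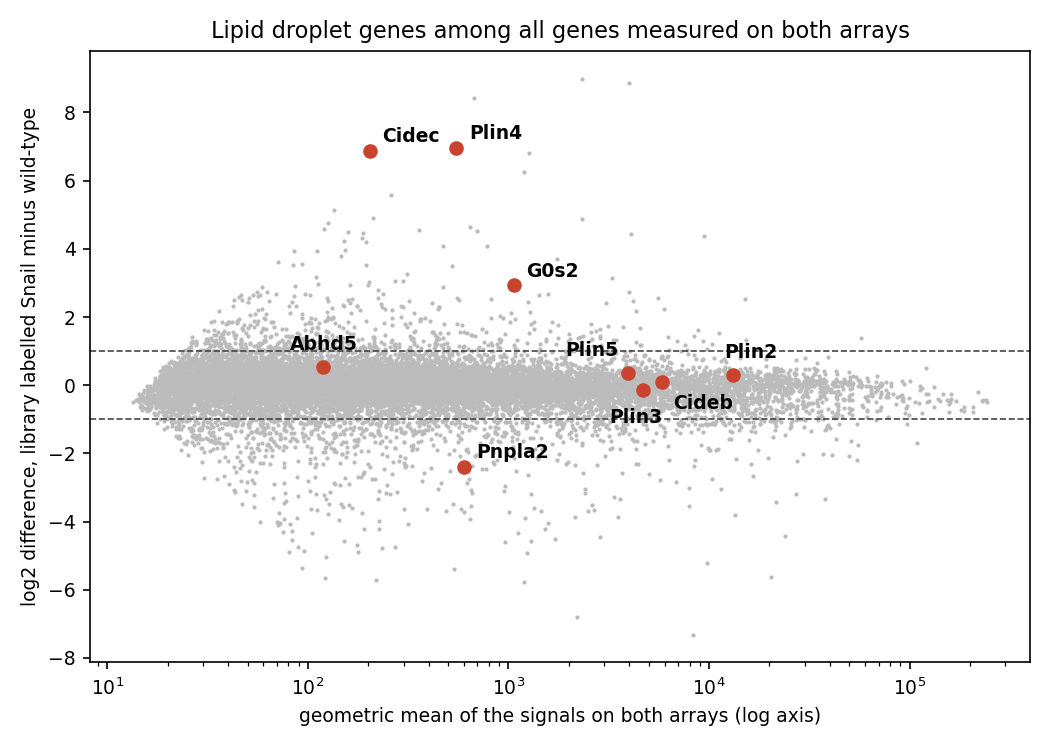
Log2 difference between the arrays against the geometric mean of the signals (log axis) for each gene measured on both arrays (grey), with the 9 measured lipid droplet genes in red and dashed lines at 2-fold. Plin4 and Cidec stand among the few genes near 7 on the log2 scale, G0s2 near 3 and Pnpla2 near -2.4, while the other 5 lie inside the dashed lines.

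Of the set, Cidec and Plin4 moved most with the processing. The genes within 2-fold moved less, though not by little beside the small size of their differences. With normexp, another background correction that adds an offset to all signals, Plin4 was at 5.72 and Cidec at 4.88 in place of 6.97 and 6.88. Without a filter on dim probes, where both Cidec probes were averaged and the wild-type signal of probe 2 was raised to its array's floor, Cidec was at 4.09, which is partly a bound. Under the 8 alternatives G0s2 lay between 2.68 and 3.03 and Pnpla2 between -2.45 and -2.10. Plin2 lay between 0.25 and 0.54, Plin5 between 0.30 and 0.49, Cideb between 0.01 and 0.26 and Abhd5 between 0.18 and 0.63, so none of these 4 reached 2-fold under any of them.

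**Figure D3:**
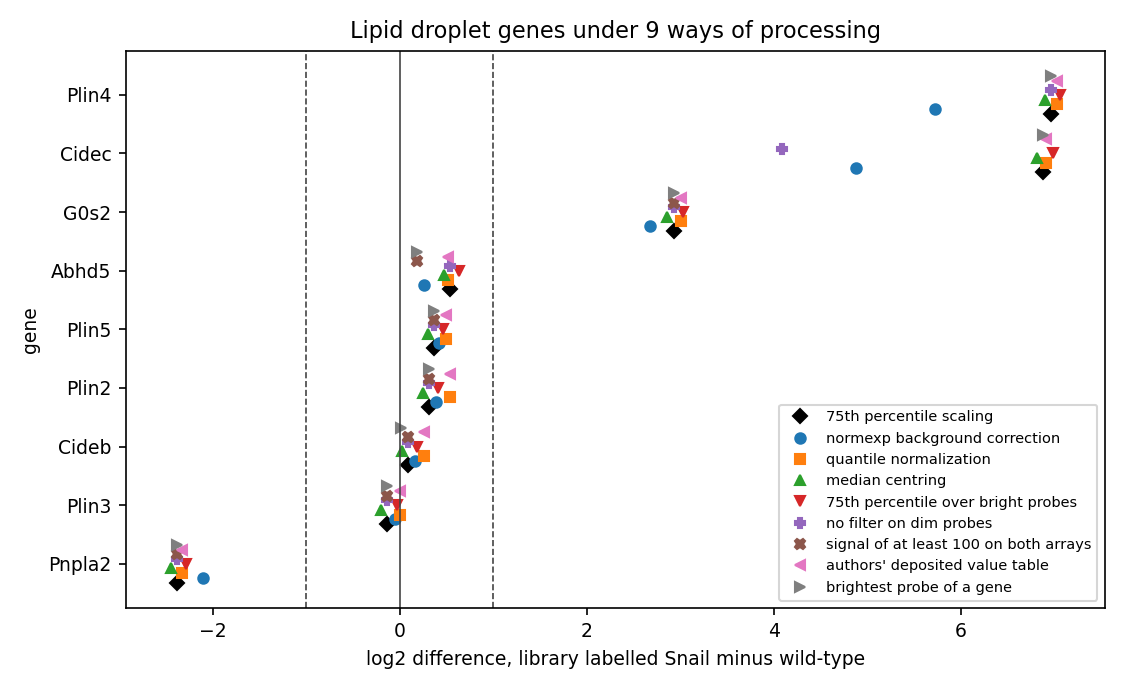
Log2 difference of each of the 9 measured lipid droplet genes under the scaling used in the text (black diamonds) and 8 alternatives, with dashed lines at 2-fold. Plin4 and Cidec have no value where a signal of at least 100 was required on both arrays; of the others, only Plin3 has points on both sides of 0.

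The promoters of the 4 genes that were at least 2-fold apart are shown because Snail binds E-boxes of the letters CAGGTG and because PPAR receptors, known regulators of perilipin and CIDE genes, bind the PPAR response element, a direct repeat of AGGTCA with 1 base between. Each is the 250 bases before the annotated start in RefSeq (build GRCm38.p6), with any CAGGTG on either strand in capitals (the letters CAGGTG and CACCTG name the same site).
Plin4, chr17:56109783-56110032 (minus strand): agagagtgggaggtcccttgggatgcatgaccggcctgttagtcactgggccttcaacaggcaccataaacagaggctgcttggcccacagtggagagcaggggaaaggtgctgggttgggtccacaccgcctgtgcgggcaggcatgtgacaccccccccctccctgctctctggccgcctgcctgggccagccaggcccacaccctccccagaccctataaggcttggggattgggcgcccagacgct
Cidec, chr6:113435761-113436010 (minus strand): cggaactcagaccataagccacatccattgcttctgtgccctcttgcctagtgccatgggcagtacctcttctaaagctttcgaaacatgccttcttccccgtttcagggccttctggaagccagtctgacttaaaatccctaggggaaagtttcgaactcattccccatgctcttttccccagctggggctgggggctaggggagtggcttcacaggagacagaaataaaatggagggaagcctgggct
G0s2, chr1:193273189-193273438 (minus strand): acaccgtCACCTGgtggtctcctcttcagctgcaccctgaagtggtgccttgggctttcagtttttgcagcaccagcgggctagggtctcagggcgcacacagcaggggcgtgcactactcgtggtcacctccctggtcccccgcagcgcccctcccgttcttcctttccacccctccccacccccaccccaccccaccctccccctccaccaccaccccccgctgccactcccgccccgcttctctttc
Pnpla2, chr7:141454938-141455187 (plus strand): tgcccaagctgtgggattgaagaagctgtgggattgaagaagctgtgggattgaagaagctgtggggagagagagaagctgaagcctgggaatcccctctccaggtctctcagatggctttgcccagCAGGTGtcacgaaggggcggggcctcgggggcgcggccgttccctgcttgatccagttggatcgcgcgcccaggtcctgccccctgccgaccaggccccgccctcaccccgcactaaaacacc
The Pnpla2 window held 1 E-box, which begins 123 bases before the start, and the G0s2 window held 1, read on the other strand as CACCTG, which begins 243 bases before it. The Plin4 window and both Cidec windows in the table, of which the outer one is shown, held none. RefSeq gave 11 windows for 9 of the 10 genes, and 4 of the 11 held the E-box, the other 2 being the windows of Plin5. Of all 32851 promoter windows of this length, 17.2% held it. The E-box thus lay before a gene that was lower, one that was higher and one within 2-fold. None of the 11 windows held the PPAR response element on either strand, exactly or with 1 mismatch, against 0.484% of all windows with 1 mismatch. The TATA box letters TATAAA, looked for on either strand, were in 1 of the 11, that of Cideb, and in 12.4% of all windows. A match of letters is not a binding site, and its absence from 250 bases says nothing of the factor.

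Plin4 and Plin5 are direct neighbours on chromosome 17, yet Plin4 was 125.0-fold higher and Plin5 1.29-fold. Lrg1, on the far side of Plin5, differed by -0.19 and Hdgfl2, on the other side of Plin4, by 0.40. For each member the nearest measured genes were taken by their order in RefSeq, 2 on each side. Around the 4 genes at least 2-fold apart there were 15 such neighbours outside the set, with differences from -0.19 to 1.38. Of these, 14 were within 2-fold, near the share of 89.7% among all genes, and 1 was past it. This was Lamb3, a laminin chain gene beside G0s2, which read 50.05 and 168.6 and was 2.59-fold higher. The neighbours of Pnpla2 lay between -0.12 and 0.01 and those of Cidec between 0.03 and 0.49.

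**Figure D4:**
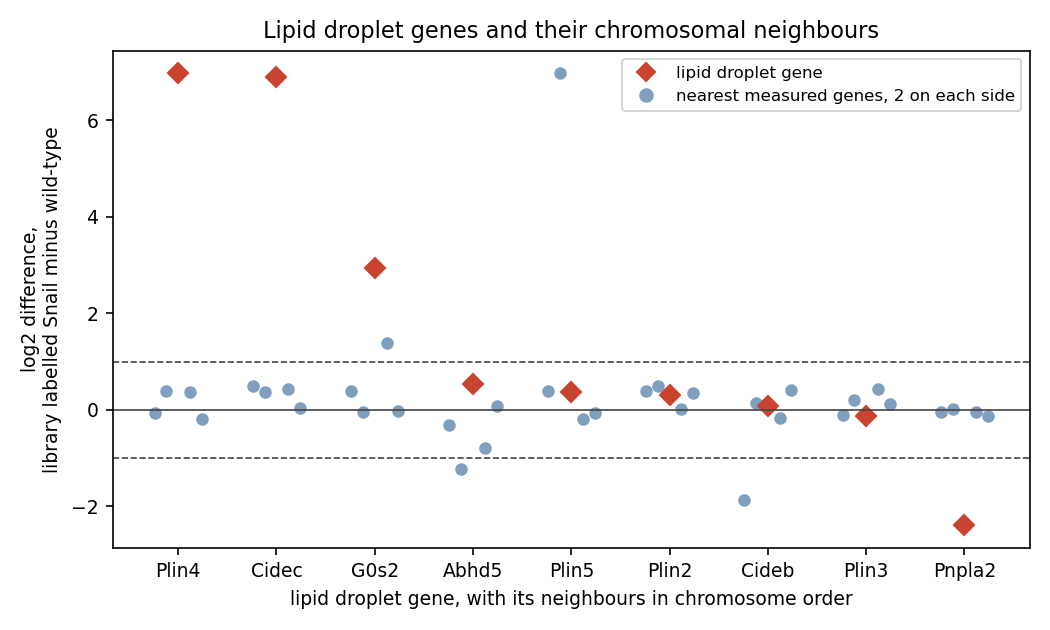
Log2 difference of the 9 measured lipid droplet genes (red diamonds) and of the nearest measured genes on either side of each on its chromosome (blue points), with dashed lines at 2-fold. Around Plin4, Cidec and Pnpla2 the neighbours stay inside the dashed lines; the high blue point beside Plin5 is Plin4 itself.

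Other genes of the droplet and of triglyceride turnover were read from 5 lists, chosen like the set with earlier results known. Among all genes 3.96% were past 2-fold upwards and 6.34% downwards. With at most 3 genes in a direction, the counts below describe the lists and set none of them apart. Of 28 other droplet-associated genes 22 were measured and had a median of 0.02, with 1 past 2-fold upwards and 2 downwards. The higher gene was Fitm1, a protein of the endoplasmic reticulum that helps droplets form, with 57.0 in wild-type liver against 213.6, or 2.89-fold. Lower were the acyl-CoA synthetase gene Acsl3, with 250.4 and 135.5 or 2.40-fold, and the cholesterol ester hydrolase gene Nceh1, with 1146 and 542.0 or 2.75-fold. Plin1, the perilipin of white fat cells, read 3.48 and 2.72 and was above background in neither library. Hilpda, a further inhibitor of ATGL, differed by 0.25 with signals of 93.1 and 143.4.

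Among 22 neutral lipid hydrolases and fatty acid carriers, 19 were measured and had a median of 0.08, with 2 past 2-fold upwards and 1 downwards. Lipe, the hormone-sensitive lipase, read 7.44 and 12.5 and was above background in neither library. Mgll, the monoglyceride lipase of the last step of lipolysis, read 1118 and 780.2, or 1.86-fold lower. The carboxylesterase gene Ces1g was 2.53-fold higher and the lipoprotein lipase gene Lpl 2.42-fold higher, while Fabp5, a carrier of fatty acids, read 7666 and 878.7.

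Of 18 genes of triglyceride and sterol ester synthesis, 17 were measured and had a median of 0.10, with 1 past 2-fold upwards and 3 downwards. The monoacylglycerol acyltransferase gene Mogat2 read 100.8 and 2233, or 17.1-fold higher. Mogat1, of the same family, read 8.58, not well above background, and 896.0, which was at least 49.96-fold higher. Dgat2, a diacylglycerol acyltransferase of the last step, read 34328 and 18485, or 2.41-fold lower. Dgat1, which catalyses the same reaction, was 1.29-fold higher. Agpat3 and Lpin1 were 2.44-fold and 2.72-fold lower.

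Of 11 genes of very-low-density lipoprotein assembly all were measured, 10 had differences below 0 and the median was -0.38, against 52.6% below 0 and a median of -0.03 over all genes. All 10 hepatocyte markers were below 0 as well, with a median of -0.64, and their part in the values of this list was not tested. Tm6sf2, which helps load lipid onto the particle, was 2.04-fold lower. It was short of 2-fold in several other ways of processing, such as at -0.92 in the authors' deposited value table. The transfer protein gene Mttp read 1776 on both arrays, so its 1.30-fold lower value came from the scaling. Of 22 regulators 21 were measured and had a median of -0.15, with 1 past 2-fold upwards and 1 downwards. Pparg, an activator of droplet genes, read 391.3 and 2085, or 4.10-fold higher, while Ppara was 1.78-fold lower and Ppargc1a 1.64-fold lower. Klf15 was 2.96-fold lower. Snai2, a relative of Snail, was well above background only in wild-type liver, with 288.6 and 16.0.

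**Figure D5:**
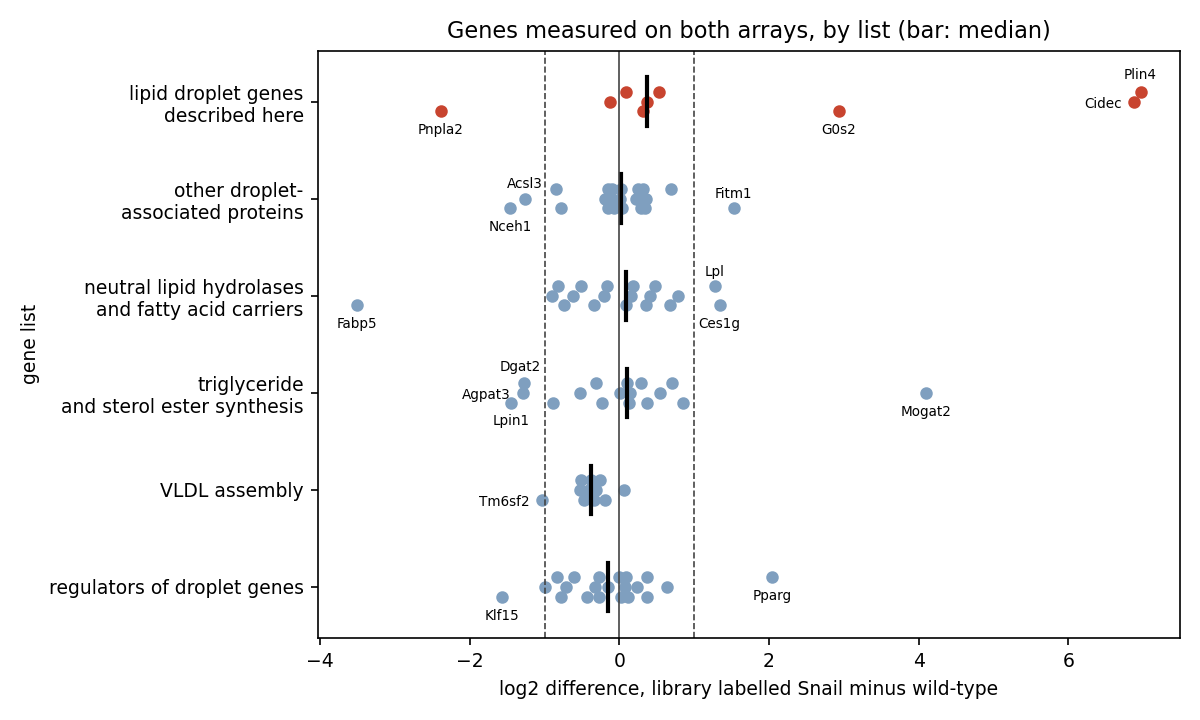
Log2 difference of every gene measured on both arrays in the lipid droplet set (red) and in 5 further lists (blue), with the median of each as a bar, dashed lines at 2-fold and names for genes beyond them. The bars of the 5 further lists lie between -0.38 and 0.10, and Mogat2 at 4.09 is the highest point outside the red row.

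Plin4 and Cidec are also markers of fat cells, so markers of fat and of other cell types were read beside them. Among all measured genes 3.96% were past 2-fold upwards and 6.34% downwards. Of all 31894 gene names, 1393 were above background in the library labelled Snail alone and 14564 on neither array. The counts below describe the marker lists only. Some fat markers, such as Pparg, Lpl, Plin1, Lipe, Ppargc1a and Cidea, are also in the set or in the lists above. The summed scaled signal of the 10 hepatocyte markers, all of them measured, came to 5899 for wild-type and to 4021 for the library labelled Snail. Of these markers, 2 were past 2-fold downwards, Apoa1 at 8.22-fold and Cyp2e1 at 2.41-fold, and none upwards. Of 15 white adipocyte markers 7 were measured, with 3 past 2-fold upwards (Adrb3, Pparg and Lpl) and 1 downwards (Thrsp). Adrb3, measured by 1 of its 2 probes, read 127.9 and 3826, or 23.0-fold higher. Another 2 were above background in the library labelled Snail alone, Slc2a4 with 11.2 and 40.7, at least 2.27-fold higher, and Aqp7 with 12.03 and 21.01, at least 1.17-fold higher. The defining markers Adipoq, Lep, Retn and Cfd, like Plin1 and Lipe, were not well above background on either array, and Adipoq read 3.74 and 9.09. The summed scaled signal of the list was 339.2 and 294.8, and 8.81 and 30.4 without its brightest members Car3 and Thrsp, which were left out after their values had been seen.

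Of 11 brown adipocyte markers 2 were measured on both arrays, Cox7a1 at -0.81 and Ppargc1a at -0.72, and 4 were above background in the library labelled Snail alone. Of the 4, Cox8b read 7.73 and 34388, at least 1917-fold higher, and Elovl3 7.18 and 149.3, at least 8.32-fold higher. Prdm16 read 3.41 and 35.6, at least 1.98-fold higher, while Zic1 read 13.9 and 16.0, which after scaling was -0.18. The summed scaled signal of this list was 4.98 for wild-type and 117.5 for the library labelled Snail, where nearly all of it was Cox8b. Ucp1, which defines brown fat, read 3.44 and 3.32. Of 10 skeletal muscle markers, 8 were not well above background on either array. The 2 measured were Tnni2, at 32.6 and 56.5, and Pvalb, at 155.0 and 159.7. The sum over all 10 was 0.913 and 0.822. Of 10 macrophage markers 8 were measured, 2 of them past 2-fold upwards, and Cd68 and Gpnmb were above background in the library labelled Snail alone, Gpnmb at least 1.66-fold higher and Cd68 with no bound above 1. The sum was 43.7 and 61.5, with most of the rise from Marco, at 1049 and 3862, and the brightest Csf1r probe, at 5116 and 8837. The 3 Csf1r probes spanned 1.17 and their mean was -0.03. Of 10 stellate cell markers 9 were measured, 3 of them past 2-fold downwards, and the sum was 73.0 and 29.5. Most of this sum was the brightest Ecm1 probe, at 11389 and 5585. The part of these cell types in the values of the droplet genes was not tested.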

How the data were processed

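Liver RNA was labelled with Cy3 and read on 1 array per genotype, per the labels' protocols. The submitters' processing notes name Agilent Feature Extraction 9.5.1.1 for the deposited scanner files. Per the file headers, their intensity values had the background subtracted and were detrended within an array, with no scaling from one array to another. A deposited table of intensity values, whose 2 columns share the same quantiles, was an alternative. Both arrays were of 1 slide and 1 scan.

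Processed signals were divided by the 75th percentile of the non-control spots of their array and taken to log2. The 287 non-control spots marked as outliers were dropped. Saturation was marked on no spot. Among 43020 non-control spots the software called 50.7% (wild-type) and 54.0% well above background. The number of arrays limits the precision. Probes were named by accession through RefSeq (GRCm38.p6, names only), which matched 66.1% of 39422, and kept the scanner file's name otherwise. Gene values are means over those probes that passed this call on both arrays. One that passed on 1 array gives a bound only, against the higher of that array's lowest signal passing the call and the dim signal itself. Where that dim signal was higher, no bound is given. The 95% interval of a difference is 1.96 times the error of the scanner software's model, taken for both spots. Repeated spots were paired by position on the arrays, over 239 probes with at least 5 spots.

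The named genes are all members, up to 6 genes of each list that were at least 2-fold apart, 11 fixed genes, and the genes ranked next to the member with the largest difference. For 6 lists of cell type markers, counts and sums over each gene's brightest probe are given. The chromosomal neighbours were added after values had been seen. The members and lists were chosen with earlier results of these data known. The counting step was run on simulated data with planted changes well past 2-fold and spot noise only. That run checks the code and says nothing of the differences reported here. Alternatives were normexp with an offset of 50 (limma 3.58.1), quantile normalization, median centring, a percentile over bright probes, no filter, a signal of at least 100 on both arrays, the authors' deposited value table and the brightest probe of a gene. Protein sequences were not used here.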

Additional observations from a re-analysis of the deposited data

How the results depend on the processing

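The direction and the side of 2-fold were kept by all 9 measured genes of the set under the 8 alternatives, with the exceptions that Plin3 turned from -0.13 to 0.0049 under quantile normalization and in the authors' deposited value table, and that Plin4 and Cidec had no value where a signal of at least 100 was required on both arrays. The count of members at least 2-fold higher was then 1 in place of 3, since their wild-type signals were below 100. Some named genes of the lists did not keep their side of 2-fold. With normexp Fitm1 was at 0.88, Lpl at 0.77, Acsl3 at -0.96 and Tm6sf2 at -0.96. Tm6sf2 was also at -0.92 under quantile normalization and in the authors' deposited value table. With the percentile over bright probes it was at -0.93. Lpin1 was at -0.96 without a filter. Over all genes, the counts at least 2-fold higher and lower were 297 and 572 with normexp, and 262 and 605 at a signal of at least 100, where 10354 genes were left. The median of all genes was -0.03, between -0.09 and 0.07 under the other scalings, and -0.47 without a filter, where 31894 genes entered, 14564 of them well above background on neither array. No paired analysis was possible because each group has 1 array and the labels give no replicate numbers, and no array could be left out. Low signal limits the Cidec and Plin4 folds, whose wild-type signals were 16.4 and 43.1.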

Other observations

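Next to Cidea, which was not detected, the nearest measured gene on one side was Impa2, an inositol monophosphatase gene, which read 179.7 in wild-type liver against 32.1, or 7.27-fold lower in the library labelled Snail. On the other side was Tubb6, a beta-tubulin gene, with 485.0 and 1421, or 2.26-fold higher. Both were named after their values were seen, and neither has a replicate check.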
